A study of Homo sapiens with 8 samples.

Results

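The chromatin layout of HT, an established cell line of diffuse large B cell lymphoma, was described from the enriched islands of 3 ChIP-seq libraries. The libraries were made with antibodies to trimethylated lysine 27 of histone H3 (H3K27me3), to the methyltransferase EZH2 and to trimethylated lysine 4 of histone H3 (H3K4me3). All islands of these lists on chromosomes 1 to 22 were taken, which gave 16851 for H3K27me3, 2508 for EZH2 and 10593 for H3K4me3. These 29952 islands were part of the 30356 HT islands on all chromosomes and of the 58757 islands of the whole series, which also covers a second lymphoma line, SUDHL6, not described here.

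The HT cells were untreated and grown in RPMI medium with serum, and each antibody, from Cell Signaling, had 1 library. With no replicate library there was no test, and the interval beside a share is the exact Clopper-Pearson one at 95%, which covers counting error alone. Counts over the 22 autosomes show how evenly a pattern lay along the genome of the same libraries, and autosomes are not replicates. The sources used here do not give the read depth. The input sample of HT was not analysed here, so no region below was checked against it. Islands were not assigned to genes, and the identity of the cells was not checked against marker genes here.

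Lysine 27 of histone H3 is methylated by Polycomb repressive complex 2, in which EZH2 is the enzyme, and its trimethylated form marks repressed chromatin. H3K4me3 marks the promoters of active genes and of genes held ready for activation. Promoters that carry both histone marks are called bivalent and are best known at developmental regulators in stem cells. In germinal centre B cells, from which many such lymphomas derive, EZH2 holds genes of differentiation and of cell cycle exit in a repressed state.

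The lists had different grain. H3K27me3 islands had a median width of 2550 bp (quartiles 1650 and 3900 bp) and covered 54.3 Mb. EZH2 islands were wider, with a median of 3600 bp (2700 and 5100 bp), and covered 10.9 Mb. H3K4me3 islands were the narrowest, with a median of 2100 bp (1500 and 2850 bp), and covered 24.9 Mb. Each island carries a score given by the authors, and the sources used here do not say what it counts. It followed width within each list, with Spearman's rho across islands of 0.949 for H3K27me3, 0.844 for EZH2 and 0.740 for H3K4me3. Scores are therefore given below as a rank within the list, from 0 for the lowest to 100 for the highest, once for the whole island and once per kb of its width.

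The antibodies mostly marked separate bases. Of the 84.0 Mb under any island, 78.1 Mb (92.9%) lay under 1 antibody, 5.75 Mb (6.85%) under a pair of them and 0.179 Mb (0.213%) under all 3. H3K27me3 alone covered 50.02 Mb, or 59.6% of the bases under any island, in 16837 unbroken stretches with a median of 2400 bp. H3K4me3 alone covered 22.9 Mb (27.2%) in 10176 stretches. EZH2 alone covered 5.18 Mb (6.17%) in 2529 stretches with a median of 1350 bp. Whole EZH2 islands without either mark numbered 613, so most of these stretches were margins of islands shared with a histone mark.

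Among the pairs, EZH2 took part in nearly all shared bases. H3K27me3 with EZH2, the repressive mark together with its enzyme, covered 3.85 Mb (4.59%) in 1337 stretches with a median of 2550 bp. EZH2 with H3K4me3 covered 1.70 Mb (2.03%) in 845 stretches with a median of 1800 bp. H3K27me3 with H3K4me3 covered 0.197 Mb (0.235%) in 211 stretches with a median of 750 bp. Promoters were not placed here, and overlap of lists does not show both marks on the same chromatin, so these bases are not called bivalent. All 3 antibodies covered nearly the same length as the 2 histone marks without EZH2, 0.179 Mb in 161 stretches with a median of 1050 bp.

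The shares of the combinations varied between autosomes, in proportion more for the rare combinations. H3K27me3 alone ran from 35.1% of the covered bases on chromosome 4 to 71.0% on chromosome 20, with a median of 58.3% over the autosomes. H3K4me3 alone ran the other way, from 18.1% on chromosome 20 to 47.5% on chromosome 4, and exceeded H3K27me3 alone on chromosomes 4 and 19. H3K27me3 with EZH2 stayed between 3.28% on chromosome 21 and 6.84% on chromosome 6. EZH2 with H3K4me3 lay between 0.956% on chromosome 3 and 3.94% on chromosome 13. H3K27me3 with H3K4me3 and the triple combination spread more, from 0.0300% to 0.516% and from 0.0517% to 0.526%. These shares also depend on list length. With each list held to its 2508 highest-scoring islands, ties kept, EZH2 alone was 20.3% of the covered bases and H3K27me3 with EZH2 7.62%. H3K27me3 with H3K4me3 was then 0.0772% and all 3 antibodies 0.0256%.

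**Figure D1:**
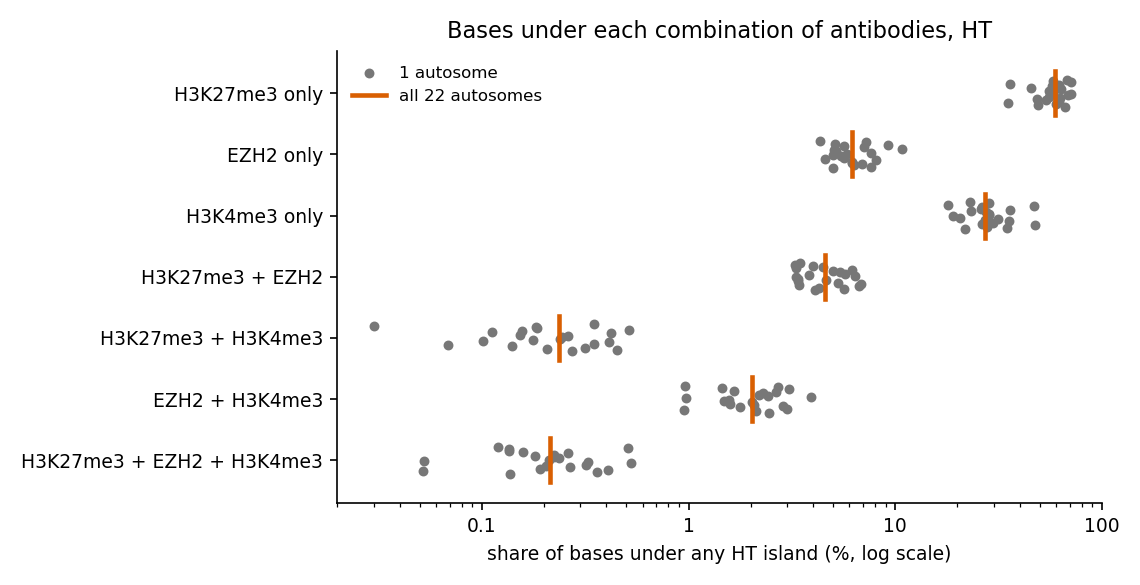
Share of the bases under any HT island (horizontal axis, percent, log scale) that lay under each of the 7 combinations, with grey points for the 22 autosomes and an orange line for all autosomes together. The single-antibody combinations and H3K27me3 with EZH2 form tight groups, whereas the combinations that hold both histone marks lie below 1% and spread widely.

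Seen from EZH2, H3K27me3 was the more frequent partner, and its list also covered more of the genome, 54.3 Mb against 24.9 Mb for H3K4me3. H3K27me3 lay over 36.9% of EZH2 bases, between 26.1% on chromosome 13 and 49.1% on chromosome 12, and H3K4me3 over 17.2%, between 8.68% on chromosome 3 and 26.7% on chromosome 13. Chromosome 13 thus had the lowest EZH2 share under H3K27me3 and the highest under H3K4me3. By number, 1224 EZH2 islands (48.8%, 46.8 to 50.8%) overlapped H3K27me3 and 851 (33.9%, 32.1 to 35.8%) overlapped H3K4me3. With 2508 islands in each list, EZH2 islands over neither mark made up 61.1% in place of 24.4%.

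Seen from the histone marks, EZH2, with its short list, was a minor partner. EZH2 lay over 7.43% of H3K27me3 bases, with a range from 4.55% on chromosome 11 to 16.6% on chromosome 4. It lay over a similar share, 7.55%, of H3K4me3 bases, from 3.47% on chromosome 3 to 12.7% on chromosome 13. Each histone mark held little of the other, with 0.693% of H3K27me3 bases under H3K4me3 and 1.51% of H3K4me3 bases under H3K27me3.

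The third antibody was unevenly spread over the pairs, and in the same direction on every autosome. Of the bases under both H3K27me3 and EZH2, 4.44% also lay under H3K4me3. This share was 24.7% of the EZH2 bases without H3K27me3 and 0.393% of the H3K27me3 bases without EZH2. H3K4me3 was therefore rarer on EZH2 bases with H3K27me3 than without it, and more frequent on H3K27me3 bases with EZH2 than without it. Of the bases under both EZH2 and H3K4me3, 9.501% also lay under H3K27me3, against 42.6% of the EZH2 bases without H3K4me3 and 0.856% of the H3K4me3 bases without EZH2. Of the bases under both histone marks, 47.5% lay under EZH2, against 7.15% of H3K27me3 bases without H3K4me3 and 6.93% of H3K4me3 bases without H3K27me3. Each of these 6 differences had the same direction on 22 of 22 autosomes. They come in pairs that read the same association from either side, and both of a pair must share their direction.

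The shape of the overlaps differed between the pairs. EZH2 and H3K27me3 islands formed 1342 overlapping pairs with a median shared length of 2550 bp. In 27.9% of them the EZH2 island lay inside the H3K27me3 island, in 24.6% the H3K27me3 island lay inside the EZH2 island, and 24.96% and 22.2% were staggered to lower and to higher coordinates. No arrangement was dominant in this pair. When EZH2 lay inside H3K27me3, its centre was in the central 50% of the H3K27me3 island in 88.5% of pairs.

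EZH2 and H3K4me3 islands formed 882 pairs with a median shared length of 1800 bp, and here the narrower mark sat within the enzyme. H3K4me3 lay inside EZH2 in 412 pairs (46.7%), and EZH2 inside H3K4me3 in 78 (8.84%). The other pairs were mostly staggered, 200 to lower and 188 to higher coordinates. The 2 histone marks formed 347 pairs with a median shared length of 900 bp and mostly met at their edges. In 120 of them H3K4me3 reached out to lower and in 115 to higher coordinates, whereas it lay inside H3K27me3 in 82 (23.6%).

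Coverage by distance from island edges gave the same picture at base level. EZH2 covered 0.392% of bases 50 to 100 kb outside H3K27me3 islands and 0.245% of those 5 to 10 kb outside. The share was 3.04% within 0.6 kb outside, 4.54% within 0.6 kb inside and 13.9% from 2.4 to 5 kb inside. H3K4me3 also declined from far outside towards these edges, and had no such increase inside. It covered 1.59% of bases 50 to 100 kb outside H3K27me3 islands, 0.757% of those 2.4 to 5 kb outside and 0.517% of those 2.4 to 5 kb inside. Within 0.6 kb of the edge the share was 0.932% outside and 0.845% inside, so the bases just outside H3K27me3 islands held slightly more H3K4me3 than those 2.4 to 5 kb away on either side.

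Around H3K4me3 islands the 2 other antibodies also diverged. EZH2 covered 0.411% of bases 50 to 100 kb outside H3K4me3 islands, 4.95% within 0.6 kb outside and 10.3% between 1.2 and 2.4 kb inside. H3K27me3 covered 3.26% at 50 to 100 kb outside, 1.96% within 0.6 kb outside and 0.936% between 1.2 and 2.4 kb inside. Around EZH2 islands both marks increased inwards. H3K27me3 went from 3.42% at 50 to 100 kb outside to 23.4% within 0.6 kb outside and 41.2% between 1.2 and 2.4 kb inside, and H3K4me3 from 1.63% to 8.61% and 18.4% in the same bands.

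**Figure D2:**
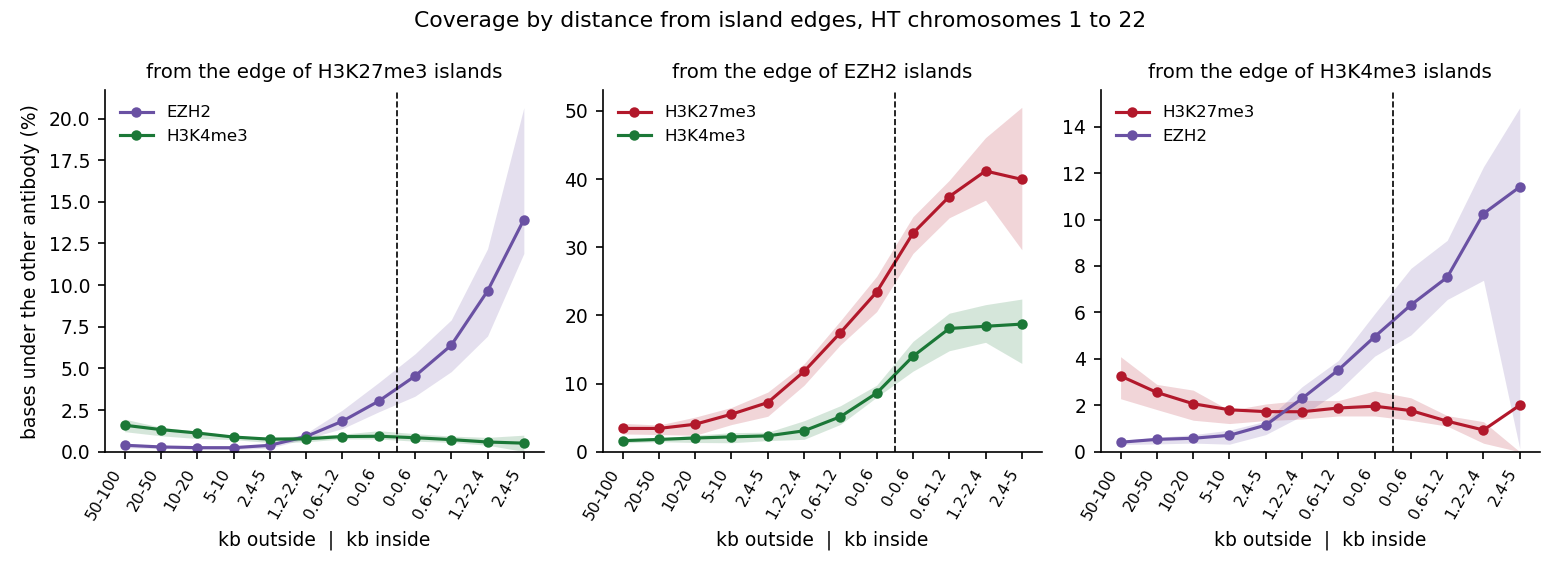
Percent of bases under the other antibodies (vertical axis, a separate scale in each panel) in bands of distance from the edges of H3K27me3, EZH2 and H3K4me3 islands (horizontal axis, kb outside to the left and inside to the right of the dashed line), with lines for all autosomes and shading for the quartiles over the 22 autosomes. EZH2 increases over the last 10 kb towards islands of both marks and further inside them. Around H3K27me3 islands it first falls, from 0.392% at 50 to 100 kb outside to 0.245% at 5 to 10 kb. Each histone mark is lower inside the islands of the other than 50 to 100 kb outside them.

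Islands that did not overlap another antibody were generally far from it. Gaps were measured from edge to edge to the nearest island of the other list, with a negative sign where that island had lower coordinates. The 1284 EZH2 islands off H3K27me3 had a median gap to it of 85.7 kb (quartiles 33.6 and 186 kb). The 1657 EZH2 islands off H3K4me3 lay nearer to that mark, with a median gap of 49.8 kb (19.2 and 118 kb). In all, 51.4% of EZH2 islands overlapped H3K27me3 or lay within 5 kb of it, and 39.4% did so for H3K4me3.

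The histone marks kept a wide distance. H3K4me3 islands off H3K27me3 had a median gap to it of 91.4 kb (35.5 and 215 kb), and H3K27me3 islands off H3K4me3 one of 109.65 kb (47.3 and 221 kb). Within a list the nearest island was much closer for H3K27me3, at a median of 9.45 kb, and intermediate for H3K4me3, at 37.95 kb. EZH2 islands were sparse, with a median gap of 154.7 kb to the next EZH2 island, so the median gaps from H3K27me3 (252 kb) and from H3K4me3 (214 kb) to EZH2 were the longest.

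The gaps lay nearly evenly on the 2 sides. The nearest island of the other list lay at higher coordinates for 49.0% (46.3 to 51.8%) of EZH2 islands off H3K27me3, with signed medians of -88.8 and 81.9 kb on the 2 sides. For EZH2 islands off H3K4me3 the share was 50.4% (48.0 to 52.8%), with signed medians of -50.25 and 48.75 kb. For H3K27me3 islands off H3K4me3 it was 51.01% (50.2 to 51.8%), the only one of the 6 directed pairs of lists whose interval left out an even split, by a small margin. These intervals take islands as independent. Islands that lie close together can share the same nearest island, so the intervals can be too narrow and this margin is not read as a side. Strand and promoter direction were not used here.

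Direct contact without overlap was rare. Of the H3K27me3 islands, 23 touched an H3K4me3 island end to end and 7 touched an EZH2 island. The H3K4me3 islands off H3K27me3 had it within 5 kb in 428 cases (4.17%), and 12 of these had it on both sides. The EZH2 islands off H3K4me3 had H3K4me3 within 5 kb in 136 cases (8.21%), 3 of them on both sides.

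**Figure D3:**
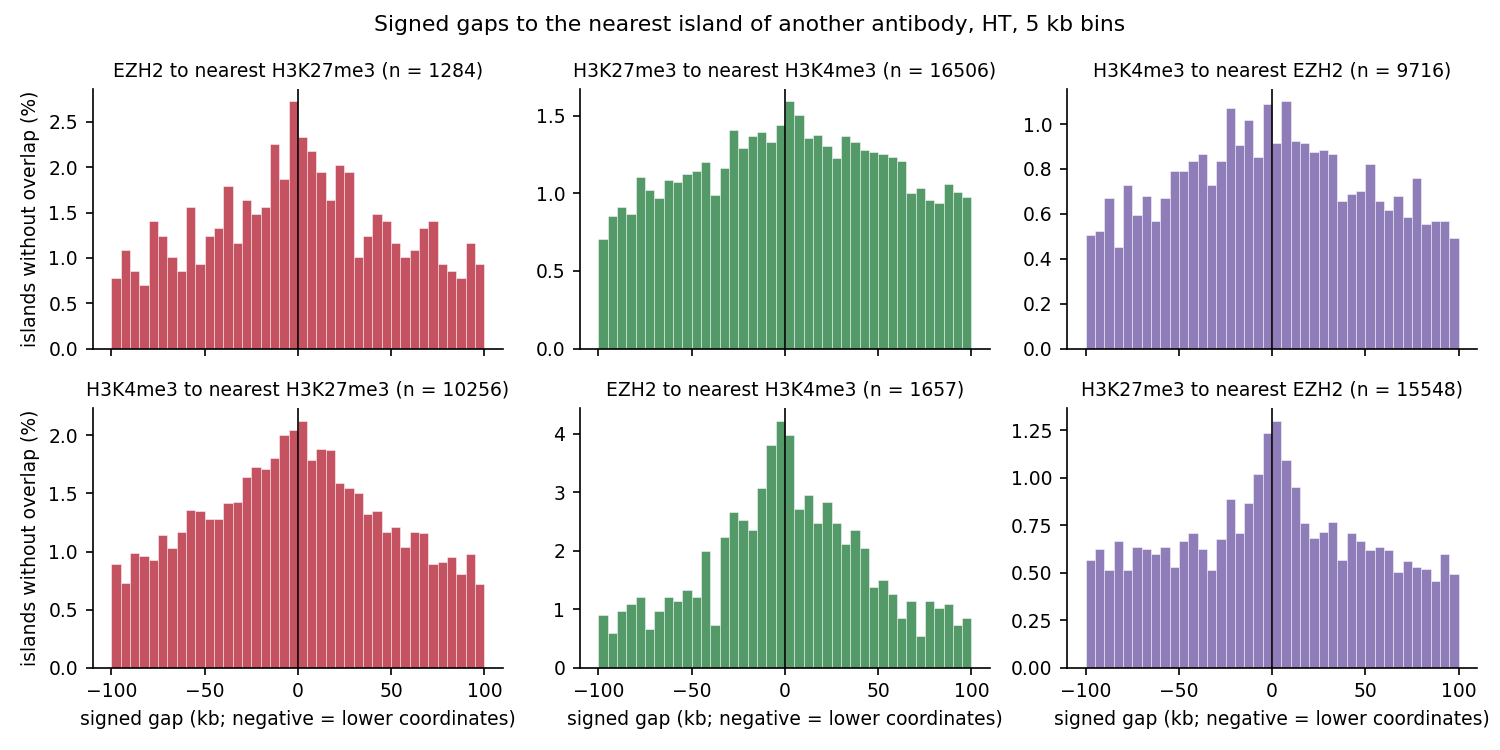
Histograms of the signed gap to the nearest island of another antibody (horizontal axis, kb, negative for lower coordinates, bins of 5 kb; vertical axis, percent of all islands without overlap) for the 6 directed pairs of HT lists. All panels are nearly symmetric around 0, and the steepest peak is that of EZH2 to the nearest H3K4me3, with a median gap of 49.8 kb.

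What an island overlapped went with how far it lay from the remaining antibody. The 613 EZH2 islands over neither mark had a median gap of 30.9 kb to H3K4me3 (quartiles 11.6 and 87.0 kb), against 63.7 kb for EZH2 islands over H3K27me3 alone. Towards H3K27me3 the median gap was 97.35 kb (95% interval 83.55 to 108.15 kb) for EZH2 islands over neither mark. It was 77.6 kb (68.85 to 86.85 kb) for those over H3K4me3 alone, and these intervals overlap. EZH2 islands without either mark thus lay nearer to H3K4me3 than EZH2 islands over H3K27me3 alone did. H3K27me3 islands over EZH2 alone had a median gap of 60.9 kb to H3K4me3, and those over neither had one of 113.85 kb. H3K4me3 islands over EZH2 alone had a median gap of 74.4 kb to H3K27me3, and those over neither had one of 93.3 kb.

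Islands of any antibody were joined into loci where they overlapped, which gave 27542 loci. H3K27me3 alone made up 15369 of them (55.8%), H3K4me3 alone 9537 (34.6%) and EZH2 alone 613 (2.23%). H3K27me3 with EZH2 made 999 loci (3.63%), EZH2 with H3K4me3 664 (2.41%), H3K27me3 with H3K4me3 173 (0.628%) and all 3 made 187 (0.679%). Of the 187 triple loci, 152 had bases under all 3 antibodies, and 35 were chains in which the antibodies met only in pairs.

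Read along the chromosome, the pairs had characteristic orders. In 366 loci of H3K27me3 with EZH2 (36.6%) an EZH2 end led through a shared stretch to an H3K27me3 end, and in 256 (25.6%) H3K27me3 flanked a shared stretch on both sides. In 300 loci of EZH2 with H3K4me3 (45.2%) an EZH2 end led to an H3K4me3 end, and in 241 (36.3%) EZH2 flanked on both sides. Loci of H3K27me3 with H3K4me3 were mostly borders, with 110 (63.6%) that went from H3K27me3 through a shared stretch to H3K4me3. H3K27me3 flanked the shared stretch on both sides in 39 of them (22.5%). The triple loci followed no common plan, with 74 different orders of which the most frequent was found in 20 loci.

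Neighbouring loci were alike more often than the mix of loci gives. The next locus beside an H3K27me3-only locus was of the same kind in 76.1% of cases, against 55.8% over all loci, and beside an H3K4me3-only locus in 60.3%, against 34.6%. Both were above the share over all loci on 22 of 22 autosomes. Of the neighbours of H3K27me3-only loci on either side, 16.9% were H3K4me3-only, below the 34.6% over all loci on every autosome. The histone marks thus lay in separate runs of loci. Islands were joined only where they overlapped, so a domain broken into several islands counts as several neighbours of the same kind. The nearest island of the same list lay within 5 kb for 37.4% of H3K27me3 islands and 11.5% of H3K4me3 islands. The part of this in the shares of like neighbours was not tested.

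EZH2-only loci kept the neighbours of H3K4me3. Beside them, 56.1% of loci were H3K4me3-only, above the 34.6% over all loci on 21 of 22 autosomes, and 26.9% were H3K27me3-only, above the 55.8% over all loci on 1 autosome. Loci of EZH2 with H3K4me3 had nearly the same neighbours, with 56.2% and 27.8%. Loci of H3K27me3 with EZH2 had 56.0% H3K27me3-only neighbours, close to the 55.8% over all loci. Loci of H3K27me3 with H3K4me3 and of all 3 antibodies fell between these, with 46.5% H3K27me3-only neighbours each, and 41.3% and 39.8% that were H3K4me3-only.

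Score ranks separated the combinations, most clearly for H3K27me3. The 1137 H3K27me3 islands over EZH2 alone had a median score of 107 and a median rank of 85.8 (quartiles 67.0 and 94.7), and 39.4% of them were in the top 10% of the list. The 15369 islands over neither had a median score of 47 and a median rank of 47.5. The islands over EZH2 were also wider, with a median of 4050 bp against 2400 bp. The difference remained per kb of width, with median ranks of 86.3 and 46.9, and among islands of 2 to 5 kb, with 79.7 and 59.5. It had the same direction on 22 of 22 autosomes. H3K27me3 islands over H3K4me3 alone had a median rank of 57.6, above that of islands over neither on 19 autosomes and below on 3.

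EZH2 islands ranked highest over H3K27me3 and lowest over neither mark. The 1044 over H3K27me3 alone had a median score of 62 and a median rank of 62.4 (37.9 and 82.4). The 671 over H3K4me3 alone had a median score of 50 and a rank of 45.5 (25.1 and 69.2), and the 613 over neither a median score of 42 and a rank of 30.3 (15.1 and 50.6). The 180 over both marks had the highest median rank, 71.3. Widths were close between the first 3 classes, at medians of 3750, 3600 and 3450 bp, and 4350 bp for the islands over both. Per kb the median ranks were 65.9, 40.0, 25.8 and 70.6 in the same order. Islands over H3K27me3 alone ranked above those over H3K4me3 alone and above those over neither on 22 of 22 autosomes.

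Among H3K4me3 islands the 2 other antibodies went with opposite ranks. The 719 over EZH2 alone had a median score of 94 and a median rank of 67.5, against 71 and 49.4 for the 9537 over neither. The 179 over H3K27me3 alone had a median score of 50 and a rank of 31.7, and the 158 over both had a rank of 37.1. The lower rank with H3K27me3 remained per kb, at 31.7 against 50.4, and among islands of 2 to 5 kb, at 49.4 against 69.0. It had this direction on 19 autosomes and the opposite on 3. Islands over EZH2 alone were wider than those over neither, at medians of 2550 and 2100 bp, and their rank per kb was 57.7 against 50.4. All 877 islands over EZH2, with or without H3K27me3, ranked 11.4 points above those over neither by score. Per kb this difference was 0.911 points (95% interval from the medians' order statistics, -3.66 to 6.07).

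**Figure D4:**
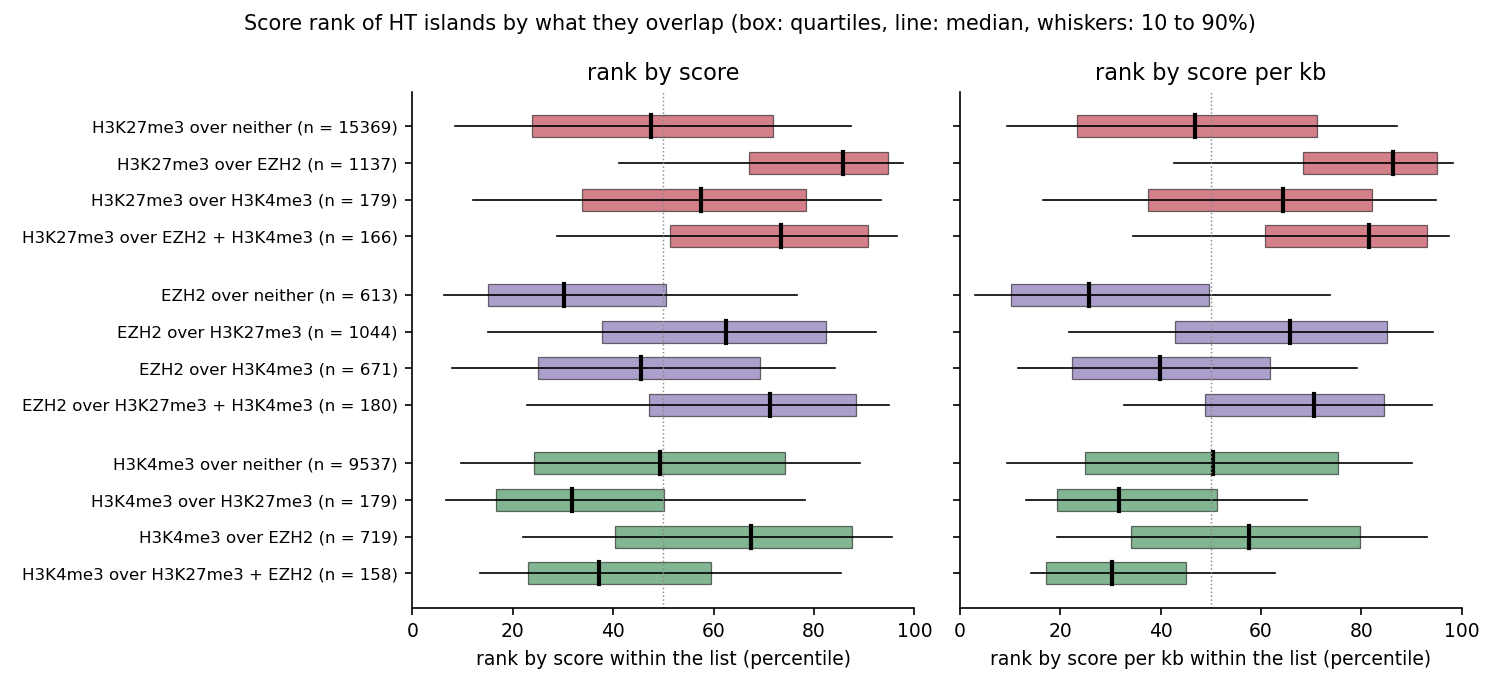
Percentile rank of HT islands within their own list (horizontal axis) by the other antibodies they overlapped, by score of the whole island on the left and by score per kb on the right, with boxes for quartiles, black lines for medians and whiskers from the 10th to the 90th percentile. H3K27me3 islands over EZH2 have median ranks of 85.8 and 86.3, and H3K4me3 islands over H3K27me3 lie below those over neither in both panels.

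Turned around, the share of islands with a partner changed across the ranks. H3K27me3 lay over 16.7% (12.3 to 21.9%) of the EZH2 islands in the lowest 10% by score per kb and over 81.7% (76.3 to 86.3%) of those in the top 10%. H3K4me3 over EZH2 showed no such trend, with 23.8% in the lowest 10%, 41.2% between ranks 25 and 50 and 23.1% in the top 10%. EZH2 lay over 1.12% (0.673 to 1.74%) of the H3K27me3 islands in the lowest 10% and over 31.2% (29.0 to 33.5%) of those in the top 10%. The median widths of these bands of H3K27me3 islands, 2700 and 2100 bp, went the other way.

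H3K27me3 was rare on the H3K4me3 islands that ranked highest per kb, and less so on those ranked by the whole score. Per kb it lay over 3 of the 1059 islands in the top 10% (0.283%, 0.0585 to 0.826%), against 7.35% (6.12 to 8.75%) between ranks 10 and 25. In the lowest 10% the share was 1.99%, so the decline did not begin at the bottom of the list. By the score of the whole island the top 10% had 22 of 1072 (2.05%, 1.29 to 3.09%) and the lowest 10% had 4.21%. EZH2 over H3K4me3 lay between 7.99% and 9.93% in all bands per kb above the lowest 10%, where it was 2.37%. By whole score it went from 3.39% in the lowest 10% to 15.0% in the top 10%, bands in which median widths were 1050 and 3900 bp.

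The share of H3K27me3 islands over EZH2 grew with width, up to a point that depended on chromosomes 10 and 11. Over all autosomes, islands below 1 kb met EZH2 in 1.45% of cases (0.832 to 2.35%), those of 2 to 5 kb in 8.12% (7.54 to 8.73%) and those of 5 to 10 kb in 17.1% (15.6 to 18.8%). The share reached 24.9% (20.3 to 30.1%) at widths of 10 to 20 kb and was 16.98% (8.07 to 29.8%) at 20 kb or wider. Without chromosomes 10 and 11, a setting chosen after the data were seen, these last shares were 37.8% (30.5 to 45.5%) and 58.3% (27.7 to 84.8%), the latter over only 12 islands. On chromosomes 10 and 11 themselves they were 9.66% (5.38 to 15.7%) of 145 islands and 4.88% (0.596 to 16.5%) of 41. At 2 to 5 kb the shares were nearer, 8.41% (7.78 to 9.07%) without chromosomes 10 and 11 and 6.04% (4.64 to 7.70%) on them.

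**Figure D5:**
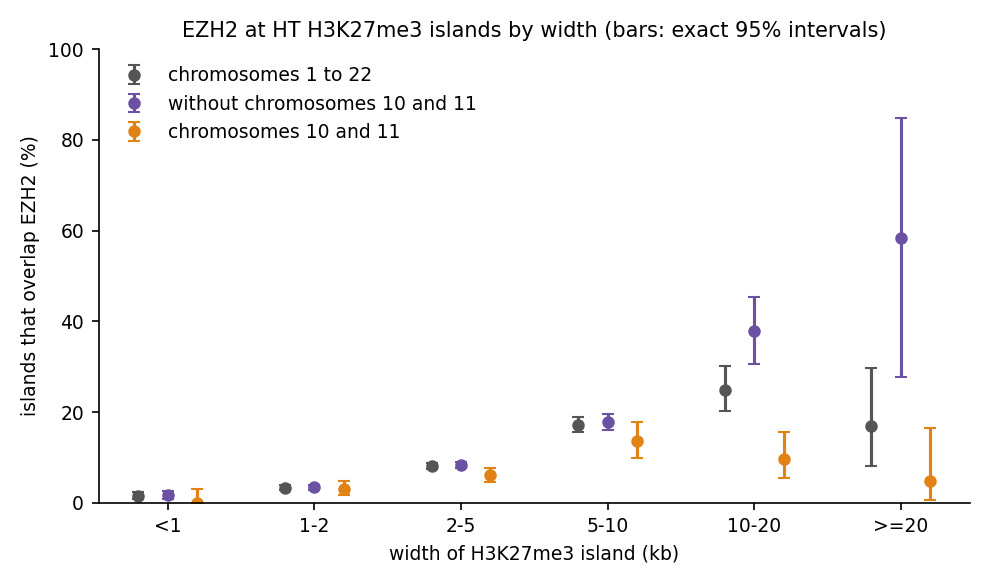
Percent of HT H3K27me3 islands that overlapped EZH2 (vertical axis) by island width (horizontal axis, kb), with points for all autosomes, for autosomes without chromosomes 10 and 11, and for these 2 chromosomes, and bars for exact 95% intervals. Chromosomes 10 and 11 lie below the other autosomes in every width class, from 6.04% against 8.41% at 2 to 5 kb to the widest gap at 10 kb or wider, where the share is 37.8% and 58.3% without chromosomes 10 and 11 and 9.66% and 4.88% on them.

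The 2 windows of 10 Mb with the most wide islands, chosen after the data were seen, together held 153 of them. Of the 370 H3K27me3 islands of 10 kb or wider, 112 lay between 110 and 120 Mb of chromosome 11 and 41 between 70 and 80 Mb of chromosome 10. No other window held more than 7. EZH2 overlapped 3 of the 112 (2.68%, 0.556 to 7.63%) and 2 of the 41 (4.88%, 0.596 to 16.5%), against 83 of the 217 wide islands elsewhere (38.2%, 31.8 to 45.1%). These 217 include the 33 wide islands on the rest of chromosomes 10 and 11, of which 11 lay over EZH2 (33.3%, 18.0 to 51.8%). EZH2 covered 13.8% of the bases of these 33, against 21.2% of the bases of all 217.

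These wide islands did not have low scores. Their median rank by score per kb was 89.2 in the chromosome 11 window and 92.9 in the chromosome 10 window, against 73.8 for wide islands elsewhere. At a rank per kb of 90 or higher, EZH2 overlapped 5 of 76 wide islands in the 2 windows (6.58%, 2.17 to 14.7%) and 45 of 57 elsewhere (78.9%, 66.1 to 88.6%). Below rank 90, EZH2 overlapped 0 of 3, 0 of 21 and 0 of 53 wide islands in the windows, in bands up to rank 50, 75 and 90. Elsewhere the shares in these bands were 6.82%, 22.4% and 40.8%. Overlap with EZH2 was thus found in the highest band in the windows too, at a lower share than elsewhere.

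The windows held EZH2 islands, and narrower H3K27me3 islands there also met them less often. EZH2 overlapped 8 of the 238 H3K27me3 islands under 10 kb in the windows (3.36%, 1.46 to 6.52%) and 7.43% (7.03 to 7.84%) of those elsewhere. The 2 windows together held 27 EZH2 islands, of which 12 lay over H3K27me3 (44.4%, 25.5 to 64.7%) and 8 over H3K4me3 (29.6%, 13.8 to 50.2%), against 48.9% and 34.0% elsewhere. Islands of every antibody were wider there. Median widths were 8250 bp for H3K27me3, 6600 bp for EZH2 and 3150 bp for H3K4me3, against 2550, 3600 and 2100 bp elsewhere. By score per kb, H3K27me3 islands there had a median rank of 85.4, EZH2 islands 73.9 and H3K4me3 islands 51.1, against 50.6, 49.7 and 50.04 elsewhere. The part of these shifts in the lower overlap was not tested.

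Depth inside the island gave the same split. EZH2 covered 6.50% of the H3K27me3 bases within 2.4 kb of an edge, 13.9% from 2.4 to 5 kb, 12.1% from 5 to 10 kb and 6.57% more than 10 kb from an edge. Without chromosomes 10 and 11 the share increased throughout, from 6.81% to 16.7%, 28.1% and 55.8%, the last over only 0.0398 Mb. On chromosomes 10 and 11 it was 4.602%, 7.13%, 3.37% and 2.16%. Over all autosomes no base more than 10 kb inside H3K27me3 lay under H3K4me3.

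Neither the input nor repeated sequence was checked at the regions named from here on. The longest stretches of each combination are given with positions on hg19 counted from 1. For H3K27me3 alone they lay at chr10:73450801-73519500 (68.7 kb), chr11:113798851-113860800 (61.95 kb) and chr11:116556151-116606850 (50.7 kb), each a whole island, with scores of 2659, 2087 and 1508. All 3 lay in the windows described above. The last named stretches of EZH2 alone, of EZH2 with H3K4me3 and of H3K27me3 with H3K4me3, given below, lay there too. EZH2 alone was longest at chr19:50594101-50643600 (49.5 kb, score 945), chr2:54990301-55027200 (36.9 kb, score 590) and chr11:116797651-116829600 (31.95 kb, score 477), again whole islands. H3K4me3 alone was longest at chr9:68445301-68472150 (26.85 kb, score 898), chr1:148865401-148890750 (25.35 kb, score 609) and chr9:68472751-68495100 (22.35 kb, score 656), the first and last of which were 600 bp apart.

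The longest shared stretches of H3K27me3 and EZH2 were far shorter than those of H3K27me3 alone. The first, at chr5:139026151-139045800 (19.65 kb), was the overlap of an H3K27me3 island of 23.25 kb (score 870) with an EZH2 island of 25.35 kb (score 529). The next lay in the chromosome 11 window, at chr11:116398651-116414700 (16.05 kb), inside the H3K27me3 island with the third highest score, chr11:116395051-116438400 (43.35 kb, score 1511). EZH2 covered 42.6% of that island. The last lay in the chromosome 10 window, at chr10:72967951-72981750 (13.8 kb). The longest shared stretches thus included 2 of the few wide islands with EZH2 in these windows.

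EZH2 and H3K4me3 shared their longest stretches within a short segment of chromosome 19, at chr19:48408301-48426600 (18.3 kb) and chr19:48446101-48462150 (16.05 kb), and at chr10:75531151-75546600 (15.45 kb). The second of these lay in the EZH2 island with the second highest score, chr19:48427351-48462150 (34.8 kb, score 681), of which H3K4me3 covered 52.2%. The last lay in the H3K4me3 island with the second highest score, chr10:75528151-75546600 (18.45 kb, score 791), of which EZH2 covered 83.7%. No H3K27me3 lay in either island.

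The combinations with both histone marks were short even at their longest. H3K27me3 with H3K4me3 and no EZH2 reached 6.3 kb at chr1:120584551-120590850, 5.7 kb at chr2:91901401-91907100 and 5.1 kb at chr11:118132501-118137600. All 3 antibodies reached 4.95 kb at chr9:69784351-69789300, 3.9 kb at chr9:42741901-42745800 and 3.15 kb at chr6:26270851-26274000. The loci with most bases under all 3 were chr9:69772351-69796350 (24 kb, 4 islands), chr2:90437851-90459750 (21.9 kb, 6 islands) and chr9:42740851-42747900 (7.05 kb). Chromosome 9 held 18.6 kb of the 0.179 Mb under all 3 antibodies, the most of any autosome. Chromosome 10 held nearly as much, 18.45 kb.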

How the data were processed

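ChIP-seq of H3K27me3, EZH2 and H3K4me3 in HT was used, with 1 library each. The 2 input samples of the series were not analysed here. The submitters' processing notes name SICER and the build hg19, without their roles. Window (150 bp), gap (450 bp) and FDR (1E-7) stand in the deposited file names. The smallest gap within a list was 600 bp. The sources used here do not give aligner, read filters, control, depth or the meaning and normalization of the score, and the H3K27me3 list carries another normalization tag in its file name (norm) than the EZH2 and H3K4me3 lists (uniqnorm). Its effect on overlaps was not tested. Each deposited score was used only within its list and depth sets no limit that can be stated. The members, lists and regions were chosen with earlier results of these data known. Overlap meant at least 1 bp. Base coverage, gaps, loci and ranks were computed on the 150 bp grid with numpy 2.4.6 and scipy 1.17.1 under Python 3.11.15. Plots were made with matplotlib 3.10.9. Combination bases, island classes, gaps and unbroken stretches were tested on simulated islands, where 100% of 6 checks were recovered. Loci and ranks were not tested in this way, and simulated islands that overlapped had the same start and end. Intervals are exact binomial for shares and from order statistics for medians. Regions were named by rule: the 3 longest stretches of each combination, the 3 islands of highest score per list and the 3 loci with most bases under all antibodies. Planned promoter states and marker genes would need genes placed on hg19 and were left out.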

Additional observations from a re-analysis of the deposited data

How the results depend on the processing

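The 8 leading values were recomputed under each alternative, and a value was counted as moved when it left the 95% interval of the reported one (for base shares, an exact binomial interval with the number of islands as n). Of 80 such values 57 stayed within it and 23 moved. The shares and gaps cannot change sign, and the 3 rank differences kept theirs under all settings run. The settings without chromosomes 10 and 11 and without islands of 10 kb or wider were chosen after the data were seen. Among the highest-scoring 50% of each list, EZH2 bases under H3K27me3 were 41.7% (36.9% as reported), EZH2 bases under H3K4me3 11.95% (17.2%) and H3K4me3 bases under H3K27me3 0.633% (1.51%). The median gaps from EZH2 were 136.35 kb to H3K27me3 (85.7 kb) and 93.6 kb to H3K4me3 (49.8 kb), and the rank differences to islands over neither were 35.2 for H3K27me3 with EZH2 (37.4) and 23.9 for H3K4me3 with EZH2 (11.4). With 2508 islands per list, ties kept, the same shares were 25.1%, 8.63% and 0.391%, the gaps 394.35 and 181.5 kb, the rank difference of H3K27me3 with EZH2 17.8, and that of EZH2 over H3K27me3 against H3K4me3 21.5 (16.8). Extension by 450 bp gave 39.8%, 20.4% and 2.17%, joining within 5 kb gave 39.2% of EZH2 bases under H3K27me3, and leaving out islands of 10 kb or wider gave 33.7%. With 50% of the island as overlap the rank differences were 24.6 for EZH2 and 35.6 for H3K27me3. Per kb they were 25.9 for EZH2 and 0.911 for H3K4me3 with EZH2. The cause of these shifts was not tested. Of 183 further values, all shares, 78 moved. With 2508 islands per list, EZH2 islands over neither mark were 61.1% (24.4%), H3K27me3 islands over EZH2 alone 25.4% (6.75%), bases under EZH2 alone 20.3% (6.17%) and bases under all 3 antibodies 0.0256% (0.213%). No paired analysis was possible because each antibody had 1 library. With depth unknown and 1 library each, a missing island is not absence of a mark.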
